A study of Mus musculus with 2 samples.

Results

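The Hox genes encode transcription factors that bind DNA through a homeodomain and lie in 4 chromosomal clusters, HoxA to HoxD. Their messenger RNA was examined in MC3T3-E1, a clonal pre-osteoblast line derived from mouse calvaria (the skull vault). Cells were cultured with formaldehyde, a reactive aldehyde, at 300 µM or at 100 µM. There was 1 RNA sequencing library per dose. The labels state no exposure time and no replicate, and cells without formaldehyde were not analysed here. Variation between cultures is thus unknown and no p-value was computed. Members were all listed genes with a symbol of the form Hoxa, Hoxb, Hoxc or Hoxd plus a number, whatever their level. Of 39 mouse Hox genes, 32 were among the 17215 genes listed. The other 7, Hoxa11, Hoxd3, Hoxd4, Hoxd8, Hoxd10, Hoxd12 and Hoxd13, had no level to analyse here and enter only the sequence comparisons.

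Hox genes are numbered by their order along the cluster, and genes of different clusters that share a number form a paralogue group. In the embryo, low-numbered genes are transcribed towards the head and high-numbered genes towards the tail, and the combination that a cell expresses marks its position along the body axis. The neural crest that builds the face and the front of the skull vault is known as Hox-negative, whereas trunk and limb skeleton forms from Hox-expressing mesoderm.

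Paralogues are alike in the homeobox, which raises the question of whether reads can be assigned to a single gene. The last stretch of the homeobox, bases 121 to 180, is shown for Hoxb9 and Hoxc9, paralogues that lay on opposite sides in the dose comparison. Sequences come from GENCODE M21 transcripts, in the sense direction, and capitals mark the 53 positions identical in both genes.
Hoxb9: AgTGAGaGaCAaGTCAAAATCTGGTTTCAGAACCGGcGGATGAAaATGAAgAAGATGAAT
Hoxc9: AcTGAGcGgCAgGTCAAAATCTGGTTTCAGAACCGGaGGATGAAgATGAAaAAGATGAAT

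Single-base differences interrupt the shared stretches. Over the whole homeobox of 180 bases, the 42 pairs within a paralogue group shared a median of 80.56% of positions (67.22% to 93.89%), against 60.56% in the 699 other pairs. The longest identical run in any pair was 52 bases. Outside and inside the homeobox together, at most 1.13% of a listed Hox gene's 50-base words also occurred in another listed gene, except for Hoxc10, which shared 6.40% with Hoxc5. Other annotated transcripts, some with an antisense name, were a larger overlap. Words were matched on both strands without recording which. Hoxb3os covered 68.7% of the words of Hoxb3 and 57.25% of those of Hoxb2. Hoxaas3 covered 27.04% of Hoxa7, and Hoxaas2 and Gm28308 covered 26.28% of Hoxa3. The sources used here do not say whether reads were counted by strand. For these genes, reads of the gene and of the overlapping transcripts cannot be told apart. Hoxa5, Hoxa9, Hoxa10, Hoxb6, Hoxb8, Hoxc4 and Hoxc6 shared no word with any other annotated gene.

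Expression is given in FPKM, a length-normalised fragment count relative to the library's mapped fragments, as the authors deposited it. Low values moved in steps that correspond to single reads, which gave an estimated depth of 19400000 fragments at 300 µM and 18500000 at 100 µM. Each level was converted to reads with this depth, and intervals are exact 95% Poisson intervals. They cover counting error only, since reads that carry no molecular identifier are not independent molecules and no culture was repeated. Over the whole series the median log2 ratio, log2((FPKM at 300 µM + 1)/(FPKM at 100 µM + 1)), was -0.30 across the 10123 genes whose mean over the libraries was 1 FPKM or more. Ratios of Hox genes are to be read against that shift. The line carried osteoblast messenger RNA at both doses, with Col1a1, the main bone collagen, at 1714 FPKM at 300 µM and 2065 at 100 µM, and Runx2, the osteoblast master regulator, at 3.6 FPKM at 300 µM and 7.99 at 100 µM. The mature osteoblast marker Bglap (osteocalcin) was near or at 0, at 0.49 FPKM at 300 µM and 0 at 100 µM. Endothelial markers summed to 0.10 FPKM at 300 µM and 0.12 at 100 µM, and epithelial markers to 0.27 FPKM at 300 µM and 0.11 at 100 µM, so both were near 0. In such bulk samples, fewer cells of a type and less RNA per cell cannot be told apart.

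Hox genes were expressed at low level, from the HoxA, HoxB and HoxC clusters and not detectably from the HoxD genes listed. At 300 µM, 3 of 32 reached 1 FPKM, namely Hoxa10, Hoxb6 and Hoxc9. At 100 µM, 9 of 32 did so, namely Hoxa2, Hoxa3, Hoxa5, Hoxa6, Hoxa10, Hoxb3, Hoxb5, Hoxb6 and Hoxb9. Among all listed genes, 54.2% reached this level at 300 µM and 59.3% at 100 µM. Only Hoxa10 and Hoxb6 reached 1 FPKM at both doses. A further 5 Hox genes were listed at 0 in both libraries, against 13.4% of all listed genes: Hoxb1, Hoxc12, Hoxd1, Hoxd9 and Hoxd11. Hoxb1 acts in the hindbrain, Hoxc12 in hair follicles, and Hoxd9 and Hoxd11 in the limbs. For a count of 0 a floor of 3 reads is used, below the upper end of 3.69 reads of the exact interval, which covers both tails. The floor for the 3 HoxD genes is 0.0723 to 0.1458 FPKM, depending on the transcript's length and the library. Lower expression was not detectable.

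**Figure D1:**
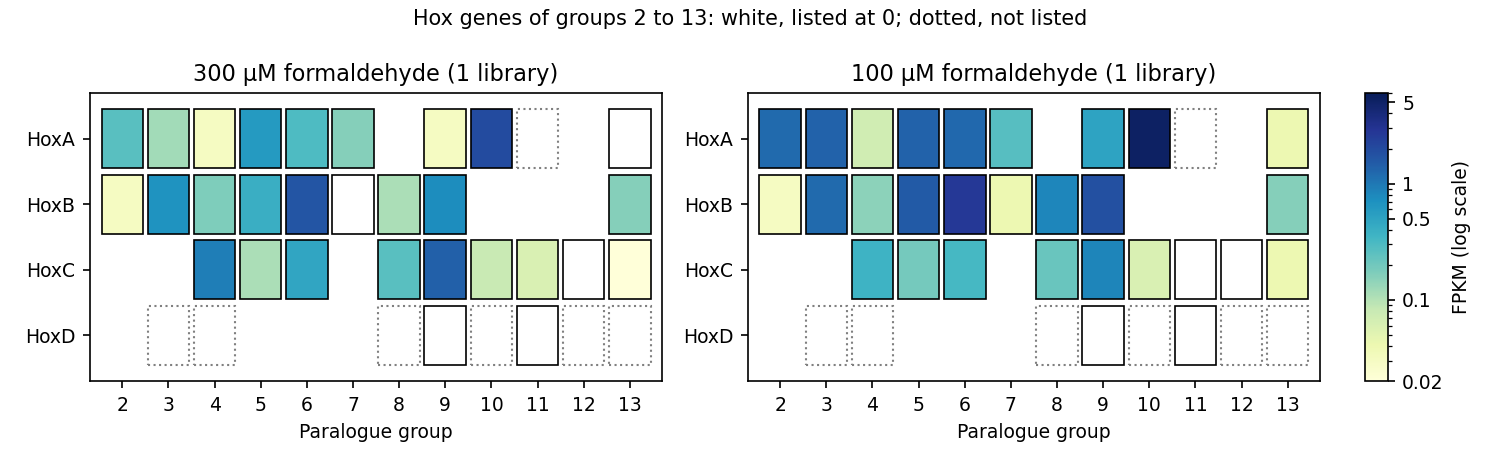
FPKM (colour, log scale) of the Hox genes by cluster (rows) and paralogue group (columns, groups 2 to 13), with the 300 µM library left and the 100 µM library right, 1 library each. White squares are listed at 0 and dotted squares are not listed; the darkest square in both libraries is Hoxa10, and Hoxd9 and Hoxd11 are at 0.

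The map of levels by cluster and paralogue group shows levels above 0 in groups 2 to 13 except group 12, highest in Hoxa10. In group 11 this was Hoxc11 alone, and only at 300 µM. Group 7, with 0.16 FPKM (6 reads) at 300 µM and 0.31 FPKM (11 reads) at 100 µM, was as low as group 13, with 0.18 FPKM (8 reads) at 300 µM and 0.24 FPKM (10 reads) at 100 µM. Members of groups 1 to 3, the anterior genes, summed to 1.33 FPKM at 300 µM and 4.29 at 100 µM over 7 listed genes. The 13 central genes of groups 4 to 8 summed to 5.22 FPKM at 300 µM and 9.30 at 100 µM. Groups 9 and 10, with 6 listed genes, summed to 4.22 FPKM at 300 µM and 8.46 at 100 µM. The most posterior groups, 11 to 13, which pattern the distal limb and the tail end of the trunk, summed to 0.24 FPKM in each library over 6 listed genes, or 10 reads (interval 4.80 to 18.4).

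Single groups differed in how many members carried the signal. Group 10 was Hoxa10 almost alone, since Hoxc10, a hindlimb and lumbar gene, had 3 reads at 300 µM and 2 at 100 µM. Group 2 rested on Hoxa2, with Hoxb2 at 1 read in each library. Group 6 had all 3 of its genes above 0.2 FPKM in both libraries. In group 9, Hoxb9 and Hoxc9 were present at both doses and Hoxd9 was at 0.

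By dose, most groups were lower at 300 µM. Group 3 summed to 0.80 FPKM at 300 µM and 2.57 at 100 µM, group 5 to 1.11 FPKM at 300 µM and 3.06 at 100 µM, and group 10 to 2.06 FPKM at 300 µM and 5.30 at 100 µM. Group 4 was the exception among groups 1 to 10, with 1.12 FPKM (44 reads) at 300 µM and 0.59 FPKM (23 reads) at 100 µM, most of it Hoxc4. Groups 6 and 9 held members on both sides, with Hoxc6 and Hoxc9 higher at 300 µM and their listed HoxA and HoxB paralogues lower.

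The order of levels was headed by the same pair in both libraries. At 300 µM, Hoxa10 was followed by Hoxb6, Hoxc9, Hoxc4 and Hoxb9, and these 5 held 60.9% of the summed Hox FPKM. At 100 µM, the order was Hoxa10, Hoxb6, Hoxb9, Hoxb5 and Hoxa3, which held 56.9%. Hoxa10 alone held 17.98% at 300 µM and 23.5% at 100 µM. It lay above 53.0% of all listed genes at 300 µM and above 56.2% at 100 µM, so even the highest Hox gene was near the middle of the transcriptome. Counting error left most of the order unresolved. Among the 17 genes with at least 0.2 FPKM in either library, the intervals of all 16 pairs of neighbours in the order overlapped at 300 µM. At 100 µM they overlapped in 15 of 16 pairs, the exception being Hoxa10 (4.61 to 5.93 FPKM) above Hoxb6 (2.12 to 3.47 FPKM).

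**Figure D2:**
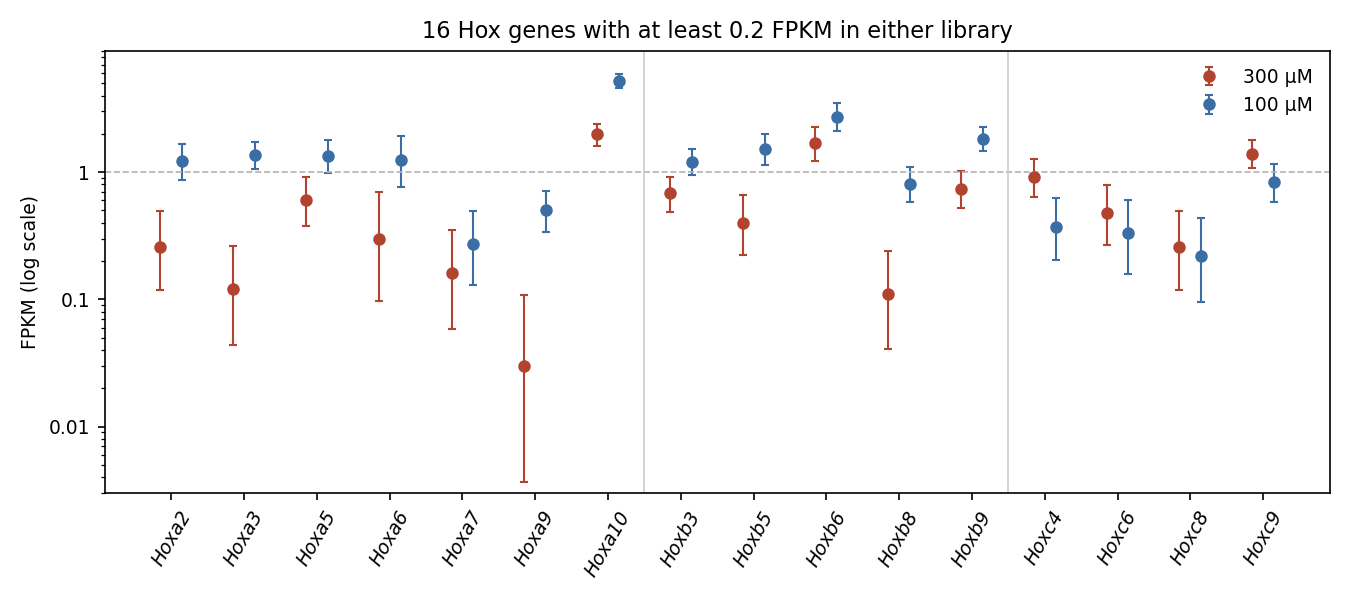
FPKM (log axis) of 16 Hox genes with at least 0.2 FPKM in either library, 300 µM left of 100 µM for each gene, 1 library each; bars are exact 95% Poisson counting intervals and the dashed line is 1 FPKM. As deposited, every HoxA and HoxB gene shown is lower at 300 µM and the 4 HoxC genes, at the right, are higher. Hoxa7 and Hoxc8 change side on another scale. Hoxa3, Hoxa7, Hoxa9 and Hoxb8 reached 0.2 FPKM only at 100 µM, so they had to be lower at 300 µM.

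The dose comparison divided by cluster. Of the 27 Hox genes above 0 in either library, 18 were lower at 300 µM, 7 were higher and 2 were equal. In HoxA 10 of 10 were lower, in HoxB 6 of 9 were lower and 1 higher, and in HoxC 2 of 8 were lower and 6 higher. Of the 17 genes with at least 0.2 FPKM in either library, 13 were lower at 300 µM as deposited, all 8 HoxA and all 5 HoxB genes, and 4 were higher, all of them HoxC; 3 of the 17 change side on another scale, Hoxa7 and Hoxc8 among them. Of the 17, 13 had at least 0.2 FPKM at 300 µM and all 17 at 100 µM, so Hoxa3, Hoxa7, Hoxa9 and Hoxb8 entered only through the library in which they were higher and had to be lower at 300 µM; their side is a description. Across all genes above 0 in either library, 59.0% were lower and 39.1% were higher by any amount. The plot of levels by gene shows the change of side at the border between HoxB and HoxC. As deposited, the counting interval of the ratio lay below 1 for 11 genes, above 1 for 2 genes and spanned 1 for 4. Those below 1 include Hoxa3, Hoxa9 and Hoxb8, whose side was set by the filter as stated above. On other scales, and for genes outside the Hox family, these intervals were not computed. No share over all genes thus stands beside these counts, and they are no result about the Hox genes. These intervals do not hold the variation between cultures.

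Ratios here are FPKM at 300 µM over that at 100 µM, without a pseudocount. HoxA genes with at least 0.2 FPKM in either library were lower, with ratios of 0.06 to 0.593. Hoxa10, which acts in the uterus and lumbar skeleton and is known to activate bone genes such as Runx2 in mouse osteoblasts, had 1.98 FPKM (99 reads) at 300 µM and 5.24 FPKM (249 reads) at 100 µM, a ratio of 0.378 (0.297 to 0.481). Hoxa5, needed for lung and cervical vertebrae, had 0.60 FPKM at 300 µM and 1.35 at 100 µM, a ratio of 0.444 (0.256 to 0.756). These were the HoxA genes with the most reads at 300 µM.

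Hoxa3, a regulator of pharyngeal organs and the hyoid, had 0.12 FPKM (6 reads) at 300 µM and 1.36 FPKM (65 reads) at 100 µM, a ratio of 0.0882 (0.0312 to 0.202). Hoxa2, which represses skeletal differentiation in the branchial arches, had 0.26 FPKM (9 reads) at 300 µM and 1.22 FPKM (40 reads) at 100 µM, a ratio of 0.213 (0.0916 to 0.449). Hoxa9, a regulator of blood progenitors, had 0.03 FPKM (2 reads) at 300 µM and 0.50 FPKM (30 reads) at 100 µM, a ratio of 0.06 (0.0074 to 0.251). These ratios rest on fewer than 10 reads at 300 µM, and for Hoxa3 and Hoxa2 reads of overlapping transcripts cannot be told apart over part of the transcript.

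Hoxa6, a trunk-patterning gene, had 0.30 FPKM (5 reads) at 300 µM and 1.25 FPKM (20 reads) at 100 µM, a ratio of 0.240 (0.0699 to 0.655). Hoxa7, a thoracic gene, had 0.16 FPKM at 300 µM and 0.27 at 100 µM, a ratio of 0.593 (0.171 to 1.74). Hoxa7 did not differ beyond counting error, and on a scale centred on the median gene it turned to the positive side, at a log2 ratio of 0.17.

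The 3 HoxB genes with the most reads at 300 µM had ratios of 0.404 to 0.615. Hoxb6, expressed in the lateral plate mesoderm that forms the limbs, had 1.68 FPKM (43 reads) at 300 µM and 2.73 FPKM (67 reads) at 100 µM, a ratio of 0.615 (0.407 to 0.911). Hoxb9, a gene of thoracic patterning, had 0.74 FPKM (37 reads) at 300 µM and 1.83 FPKM (87 reads) at 100 µM, a ratio of 0.404 (0.268 to 0.602). Hoxb3, which acts with Hoxa3 in the neck, had 0.68 FPKM (42 reads) at 300 µM and 1.21 FPKM (71 reads) at 100 µM, a ratio of 0.562 (0.376 to 0.838). Hoxb3 is the listed Hox gene with the greatest overlap with another transcript, so its reads are the least certain of these.

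Hoxb5, which acts in the shoulder girdle and the gut's nerve supply, had 0.40 FPKM (15 reads) at 300 µM and 1.52 FPKM (53 reads) at 100 µM, a ratio of 0.263 (0.141 to 0.486). Hoxb8, known in myeloid progenitors and the spinal cord, had 0.11 FPKM (6 reads) at 300 µM and 0.81 FPKM (40 reads) at 100 µM, a ratio of 0.136 (0.0496 to 0.340). Hoxb8 had the lowest ratio of the 5 HoxB genes with at least 0.2 FPKM in either library, and the intervals of both genes lay below 1.

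HoxC genes were on the other side. Hoxc9, which sets thoracic motor neuron identity, had 1.39 FPKM (64 reads) at 300 µM and 0.83 FPKM (36 reads) at 100 µM, a ratio of 1.67 (1.11 to 2.63). Hoxc4, which acts in the cervical and thoracic spine and in B cells, had 0.92 FPKM (35 reads) at 300 µM and 0.37 FPKM (14 reads) at 100 µM, a ratio of 2.49 (1.25 to 4.80). Both intervals lay above 1 as deposited, the only scale on which they were computed.

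Hoxc6, a gene of the thorax and mammary gland, had 0.48 FPKM (15 reads) at 300 µM and 0.33 FPKM (10 reads) at 100 µM, a ratio of 1.45 (0.601 to 3.56). Hoxc8, a thoracic gene whose protein binds Smad1 and represses the osteopontin promoter, had 0.26 FPKM (9 reads) at 300 µM and 0.22 FPKM (8 reads) at 100 µM, a ratio of 1.18 (0.367 to 3.20). Neither differed beyond counting error, and Hoxc8 turned to a log2 ratio of -0.04 when both libraries were scaled to equal summed FPKM.

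The other 15 genes stood at 0.17 FPKM or less at 300 µM and at 0.19 FPKM or less at 100 µM. The 10 of them above 0 rested on at most 8 reads at 300 µM and at most 10 reads at 100 µM. Hoxb4, a regulator of blood stem cells, had 8 reads at 300 µM and 7 at 100 µM, and Hoxb13, a prostate and tail gene, had 7 in each. Hoxc5 had 6 reads at 300 µM and 10 at 100 µM. Hoxa4, Hoxa13, Hoxb2, Hoxb7, Hoxc10, Hoxc11 and Hoxc13 had 0 to 3 reads in either library.

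**Figure D3:**
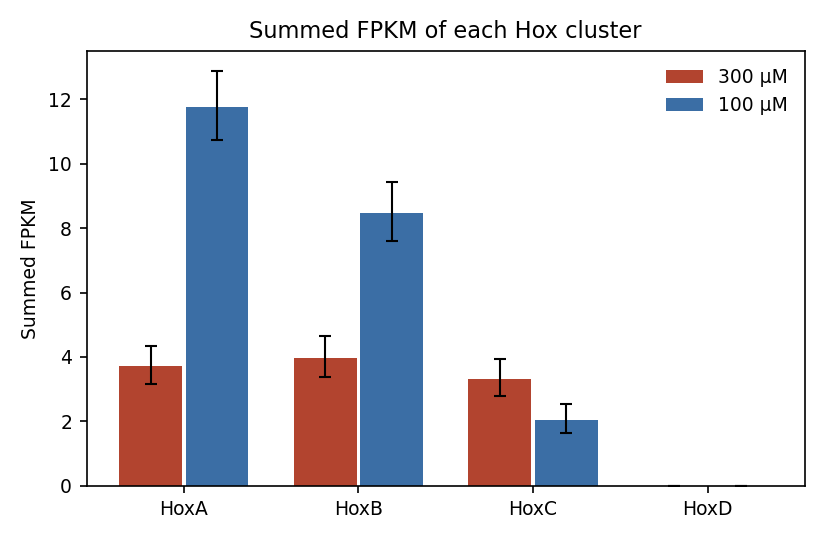
Summed FPKM of the listed genes of each Hox cluster, 300 µM left of 100 µM, 1 library each; bars start at 0 and error bars are exact 95% Poisson counting intervals. HoxA is 3.72 against 11.77 FPKM, HoxB 3.97 against 8.48 FPKM, HoxC 3.32 against 2.04 FPKM, and HoxD 0 in both.

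Summed by cluster, the 10 listed HoxA genes had 3.72 FPKM (160 reads) at 300 µM and 11.77 FPKM (484 reads) at 100 µM. The 10 HoxB genes had 3.97 FPKM (159 reads) at 300 µM and 8.48 FPKM (334 reads) at 100 µM. The 9 HoxC genes had 3.32 FPKM (135 reads) at 300 µM and 2.04 FPKM (82 reads) at 100 µM. As the bars of summed FPKM show, the 3 clusters stood close together at 300 µM and far apart at 100 µM. HoxC held 29.7% of all Hox reads at 300 µM (exact binomial interval 25.6 to 34.2) and 9.11% at 100 µM (7.31 to 11.2), while HoxA held 35.2% at 300 µM (30.8 to 39.8) and 53.8% at 100 µM (50.5 to 57.1). HoxB held 35.0% (30.6 to 39.6) at 300 µM and 37.1% (33.9 to 40.4) at 100 µM, which overlap.

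Shares within the Hox family do not depend on how the libraries are scaled, but the ratios of the sums do. The ratio of the sums was 0.316 for HoxA (0.262 to 0.378), 0.468 for HoxB (0.374 to 0.550) and 1.63 for HoxC (1.18 to 2.09) as deposited. Intervals here, and the one without Hoxc9 below, come from pooled reads, which weight long transcripts more than summed FPKM does. Centred on the median gene, these were 0.389, 0.576 and 2.0. With equal summed FPKM they were 0.244, 0.361 and 1.25. Leaving ribosomal protein genes out of that total gave 0.282, 0.418 and 1.45. The side of 1 was the same for each cluster on these 4 scales. Counting intervals were computed as deposited only, so at 1.25 the side of HoxC is not shown to lie beyond counting error. No cluster owed its side to its highest gene: without Hoxa10 the HoxA sums were 1.74 FPKM at 300 µM and 6.53 at 100 µM, without Hoxb6 the HoxB sums were 2.29 FPKM at 300 µM and 5.75 at 100 µM, and without Hoxc9 the HoxC sums were 1.93 FPKM at 300 µM and 1.21 at 100 µM. Without Hoxc9 the counting interval of the HoxC ratio began at 1.0 and ended at 2.18.

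Transcript length moved with the ratio over the whole series. The median log2 ratio was 0.70 for transcripts of at most 1000 bases, 0.25 up to 2000 bases, -0.21 up to 3000 bases, -0.61 up to 5000 bases and -0.99 above. Listed Hox transcripts measured 874 to 3226 bases, with a median of 1996, against 3008 for all genes compared. The median length was 1943 bases in HoxA, 2146 in HoxB and 1983 in HoxC. The part of length in these ratios was not tested.

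Only 4 Hox genes had a mean of at least 1 FPKM and entered the count at 2-fold. Hoxa10 was lower by more than 2-fold, at a log2 ratio of -1.07, a call that is lost when the libraries are centred on the median gene. Hoxb9 had -0.70, Hoxb6 had -0.48 and Hoxc9 had 0.39. Thus 1 of 4 was lower and 0 of 4 higher, against 29.8% lower and 6.09% higher among the 10123 genes compared. The median of the 4 was -0.59. A share of 1 in 4 is close to the background and is no result about the Hox genes. Just below the filter were Hoxa5, Hoxb5 and Hoxb3, with means of 0.975, 0.96 and 0.945 FPKM, and log2 ratios of -0.55, -0.85 and -0.40. Hoxa3, with a log2 ratio of -1.08, would have passed 2-fold but had a mean of 0.74 FPKM. The pseudocount of 1 FPKM understates the change of genes this low, which is why ratios without it are given above.

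Promoters were examined for what the clusters share in sequence, as windows from 250 bases before to 50 bases after the start, from RefSeq on GRCm38.p6. There were 24 windows for 22 Hox genes, the 7 unlisted genes among them, so not every listed member is covered. HoxC was covered by Hoxc4 alone, so shares over these windows do not describe each cluster. Windows of Hoxa10 (lower at 300 µM), Hoxc4 (higher) and Hoxd9 (at 0 in both) are printed as a gene of each kind, 5′ to 3′ on the gene's strand, with capitals on matches to 4 motifs searched on both strands.
Hoxa10, chr6:52234890-52235189, minus strand: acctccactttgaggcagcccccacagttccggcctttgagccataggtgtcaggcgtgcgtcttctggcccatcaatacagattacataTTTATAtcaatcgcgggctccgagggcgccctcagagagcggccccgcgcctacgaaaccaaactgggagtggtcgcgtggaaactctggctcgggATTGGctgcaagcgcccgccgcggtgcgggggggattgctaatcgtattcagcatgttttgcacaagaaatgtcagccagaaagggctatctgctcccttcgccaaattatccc
Hoxc4, chr15:103034145-103034444, plus strand: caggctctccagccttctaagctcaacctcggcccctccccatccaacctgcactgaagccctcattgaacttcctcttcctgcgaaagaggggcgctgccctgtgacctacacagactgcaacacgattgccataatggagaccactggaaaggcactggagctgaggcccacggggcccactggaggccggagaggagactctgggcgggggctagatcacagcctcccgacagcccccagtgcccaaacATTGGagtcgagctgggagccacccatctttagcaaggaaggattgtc
Hoxd9, chr2:74697513-74697812, plus strand: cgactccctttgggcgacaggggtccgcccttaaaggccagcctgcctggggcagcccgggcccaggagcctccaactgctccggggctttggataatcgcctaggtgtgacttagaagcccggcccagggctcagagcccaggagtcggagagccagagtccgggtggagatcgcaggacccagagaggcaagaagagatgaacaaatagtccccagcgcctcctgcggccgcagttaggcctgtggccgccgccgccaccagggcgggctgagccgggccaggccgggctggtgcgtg

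The printed Hoxa10 window held a TATAAA and a CCAAT match, while a further window of Hoxa10, at chr6:52240805-52241104, held no match. Of the others, the Hoxc4 window held a CCAAT match and the Hoxd9 window no match. CCAAT was found in 62.5% of the 24 Hox windows and in 37.41% of all 32851 windows. TATAAA was found in 16.67% of Hox windows and 13.62% of all windows. The letters TGATNNAT, a site bound by Pbx and Hox proteins together, occurred in 16.67% of Hox windows and 8.85% of all, and TGACAG, a Meis site, in 8.33% of Hox windows and 19.18% of all. No motif contains another, although matches may share end letters. The median GC content was 57.67% in Hox windows and 52.67% in all windows, with medians of 14.5 CpG dinucleotides in Hox windows and 7 in all. A match is a run of letters and not a bound site, and a window without a match says nothing about the factor.

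Hox proteins bind DNA with TALE homeodomain partners of the Pbx, Meis and Pknox families, which raise their specificity. All 9 were listed and 6 had a mean of at least 1 FPKM, of which 1 was lower and 0 were higher at 2-fold, beside 29.8% lower and 6.09% higher over all genes compared, with a median log2 ratio of -0.02. The Hox median of -0.59 and the median of -0.30 over all genes both lay below it. Pknox1, a partner of Pbx, was the lower gene, with 2.20 FPKM at 300 µM and 6.28 at 100 µM, short of 2-fold when centred on the median gene. Pbx2, a ubiquitous family member, had 4.36 FPKM at 300 µM and 8.97 at 100 µM, a log2 ratio of -0.90. Meis3, a hindbrain cofactor, was the highest of the family at 16.05 FPKM at 300 µM and 15.87 at 100 µM.

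The other cofactors were nearer in level between the doses or too low to compare. Pbx3 had 3.33 FPKM at 300 µM and 3.18 at 100 µM. Meis2, a limb and craniofacial cofactor, had 1.46 FPKM at 300 µM and 1.54 at 100 µM. Below a mean of 1 FPKM were Pknox2 with 0.87 FPKM at 300 µM and 0.18 at 100 µM, Meis1 with 0.43 FPKM at 300 µM and 0.86 at 100 µM, and Pbx4 with 0.34 FPKM at 300 µM and 0.08 at 100 µM. Meis3 and Pbx2 stood above every Hox gene in level at both doses, and Pbx3 above every Hox gene except Hoxa10 at 100 µM.

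**Figure D4:**
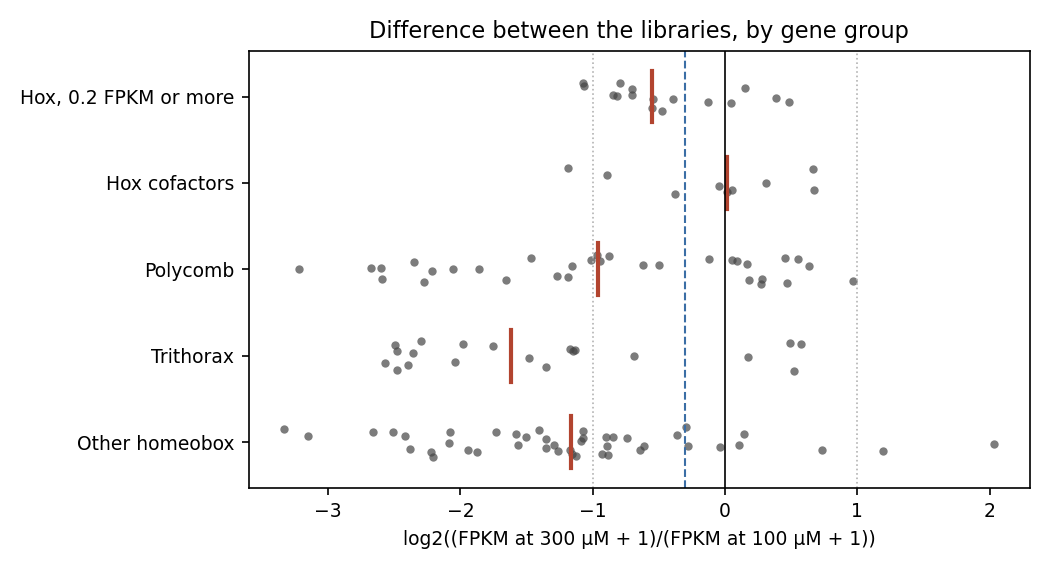
log2((FPKM at 300 µM + 1)/(FPKM at 100 µM + 1)) of single genes (points) by gene group, with a red bar at the group's median, a blue dashed line at the median of all compared genes (-0.30) and dotted lines at 2-fold. The Hox row holds 16 genes with at least 0.2 FPKM in either library and the cofactor row all 9 genes. The other rows hold compared genes, and Polycomb and Trithorax genes reach further to the left than the Hox genes. The rows differ in filter, and the pseudocount draws low genes such as the Hox genes towards 0, so the reach of the rows cannot be set side by side.

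Polycomb proteins keep Hox clusters silent outside their domain. Of 36 listed, 32 were compared, 15 were lower and 0 higher at 2-fold, beside the 29.8% and 6.09% of all genes, with a median log2 ratio of -0.96. Among those lower were Phc2, a subunit of Polycomb repressive complex 1, with 4.90 FPKM at 300 µM and 54.09 at 100 µM, and Rybp, another subunit, with 3.6 FPKM at 300 µM and 26.78 at 100 µM. Asxl1, of the deubiquitinase complex, had 1.73 FPKM at 300 µM and 16.47 at 100 µM. Kdm2b, which recruits a variant Polycomb repressive complex 1 to CpG islands, had 1.96 FPKM at 300 µM and 16.99 at 100 µM. On the other side, Pcgf5, a subunit of a variant complex 1, had 14.15 FPKM at 300 µM and 8.75 at 100 µM, a log2 ratio of 0.64 and short of 2-fold.

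Trithorax-group proteins keep Hox genes active and many of them methylate histones. Of 21 listed, 20 were compared, 15 were lower and 0 higher, beside 29.8% lower and 6.09% higher over all genes compared, with a median log2 ratio of -1.62. Dot1l, a histone methyltransferase tied to HoxA genes in leukaemia, had 1.34 FPKM at 300 µM and 12.88 at 100 µM. Kmt2d, an enhancer methyltransferase, had 0.17 FPKM at 300 µM and 5.51 at 100 µM. Ash2l and Dpy30, core subunits of the methyltransferase complexes, had 49.44 and 49.93 FPKM at 300 µM and 32.89 and 34.57 FPKM at 100 µM. The median transcript length was 3850 bases for the compared Polycomb genes and 5931 for the Trithorax genes, and the part of length was not tested. As the plot of ratios by gene group shows, both medians lay below the median of all genes.

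Of 130 other listed homeobox genes, 44 were compared, 27 were lower and 2 higher, beside 29.8% lower and 6.09% higher over all genes compared, with a median log2 ratio of -1.16 and a median length of 2908 bases. In this group 34 reached 1 FPKM at 300 µM and 47 at 100 µM, and 32 of the 130 were at 0 in both, beside 13.4% of all listed genes. Adnp, a chromatin regulator, had 2.70 FPKM at 300 µM and 36.25 at 100 µM, and Hlx, a mesenchymal gene, had 1.75 FPKM at 300 µM and 23.43 at 100 µM. The 2 that were higher were Prrx2, a marker of limb and craniofacial mesenchyme, with 144.43 FPKM at 300 µM and 62.62 at 100 µM, and Nanog, a pluripotency gene, with 4.82 FPKM at 300 µM and 0.42 at 100 µM. Prrx2 was thus well above Hoxa10 in level in each library.

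Genes of the cranial mesenchyme outside the Hox family were more abundant than the Hox genes. Their 10 markers summed to 61.14 FPKM at 300 µM and 134.43 at 100 µM, against 11.01 FPKM at 300 µM and 22.29 at 100 µM for the 32 Hox genes. Twist1, a suture and mesenchyme regulator, had 22.04 FPKM at 300 µM and 42.05 at 100 µM. Six2, a head mesenchyme gene, had 17.44 FPKM at 300 µM and 32.98 at 100 µM. Alx4, a skull vault gene, had 3.78 FPKM at 300 µM and 7.60 at 100 µM. Of the 8 compared, 2 were lower by 2-fold and 0 higher, which is close to the 29.8% lower over all genes. Markers of other cell types differed in sum between the doses, at 15.74 FPKM at 300 µM and 31.41 at 100 µM for neural, 360.5 FPKM at 300 µM and 383.3 at 100 µM for chondrocyte, and 1.23 FPKM at 300 µM and 3.06 at 100 µM for blood. Adipocyte markers summed to 2.01 FPKM at 300 µM and 5.29 at 100 µM, and skeletal muscle markers to 10.55 FPKM at 300 µM and 3.58 at 100 µM. Single genes carried these sums, among them Tubb3 with 15.32 FPKM at 300 µM and 31.11 at 100 µM, Col2a1 with 350.1 FPKM at 300 µM and 321.7 at 100 µM, and Acta1 with 10.06 FPKM at 300 µM and 3.29 at 100 µM. Within a list the genes could differ in side: Sox9 had 9.78 FPKM at 300 µM and 61.44 at 100 µM, Cebpa had 1.46 FPKM at 300 µM and 5.14 at 100 µM, and Pparg had 0.55 FPKM at 300 µM and 0.15 at 100 µM. The defining markers Acan, Fabp4, Plin1, Myog, Myf5 and Adgre1 were at 0 in both libraries. The part of these cell types in the Hox levels was not tested.

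Genes beside the clusters varied in level and in side. Skap2, the nearest listed gene on the group 1 side of HoxA, had 34.60 FPKM at 300 µM and 10.77 at 100 µM, on the other side from the HoxA genes. Smug1, the nearest on the group 1 side of HoxC, had 0.53 FPKM at 300 µM and 6.17 at 100 µM, again opposite to its cluster. Mtx2, next to the group 1 end of HoxD, had 28.85 FPKM at 300 µM and 16.53 at 100 µM although the listed HoxD genes were at 0. On the group 13 side, Calcoco1 beside HoxC had 12.95 FPKM at 300 µM and 11.15 at 100 µM, on the side of its cluster, and Lnpk beside HoxD had 2.85 FPKM at 300 µM and 4.96 at 100 µM. Evx1 beside HoxA and Ttll6 and Skap1 beside HoxB were at 0.27 FPKM or less. In the wider list of 30 listed neighbours, 23 were compared, 7 were lower and 2 higher, with a median log2 ratio of 0.20. Over all genes compared, 29.8% were lower and 6.09% higher, so the share lower is close to the background and is no result about the neighbours.

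Known upstream regulators of Hox clusters included retinoic acid receptors and enzymes, Cdx factors and cohesin. Of 27 listed, 18 were compared, 5 were lower and 2 higher, with a median log2 ratio of -0.32. The share lower is again close to the 29.8% of all genes, and 6.09% of all genes were higher. Rara, a retinoic acid receptor, had the lowest ratio, with 1.54 FPKM at 300 µM and 13.11 at 100 µM. Stag1, a cohesin subunit, had the highest, with 6.98 FPKM at 300 µM and 2.21 at 100 µM. Among 28 genes known as limb and axial Hox targets, 11 were compared, 6 were lower and 0 higher, beside 29.8% lower and 6.09% higher over all genes compared, with a median log2 ratio of -1.0. Sox9, the cartilage regulator, had 9.78 FPKM at 300 µM and 61.44 at 100 µM. Bmp4, a limb signal, had 20.22 FPKM at 300 µM and 10.05 at 100 µM, short of 2-fold with the pseudocount. Compared genes of the target list had a median length of 6050 bases. Of all compared genes above 5000 bases, 49.9% were lower and 2.46% higher at 2-fold, with a median log2 ratio of -0.99. The part of length in the target list was not tested.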

How the data were processed

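Messenger RNA of 2 MC3T3-E1 libraries was measured, 1 per dose, with groups taken from the agent label. The authors deposited FPKM per gene with 2 decimals, per the file headers. The submitters' processing notes list Bowtie2 (a read aligner) and RSEM (a transcript quantifier), with no version. Genome build, gene models and strand setting: not given in the sources used here. RSEM divides reads among isoforms, so overlapping transcripts can be misassigned. NCBI gene numbers were matched to RefSeq symbols (17179 of 17215, and 6 more in GENCODE M21), and transcript lengths came from GENCODE M21.

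The value of 1 read was 51.5 FPKM bases at 300 µM (64.8% of 71 low values whole within 0.12 reads) and 54 at 100 µM (66.3% of 104). Intervals of ratios are exact conditional binomial intervals at 95%. Genes compared had a mean of at least 1 FPKM. Genes were counted at 2-fold with a pseudocount of 1 FPKM. The members and lists were chosen with earlier results of these data known. Named in full were Hox genes with at least 0.2 FPKM in either library and all TALE cofactors, and of the other lists at most 4 genes per direction. Genes beside a cluster were named by position. Some genes and sequences that these rules take are not reported here. Alternatives were other pseudocounts, filters, folds, levels and scales. The steps were tested on simulated data. Computation used scipy 1.17.1, pandas 2.3.3 and numpy 2.4.6 in Python 3.11.15, and figures used matplotlib 3.10.9.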

Additional observations from a re-analysis of the deposited data

How the results depend on the processing

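No paired analysis was possible because each dose has 1 library. Of 85 log2 ratios of named Hox genes under alternatives, 3 changed sign, those of Hoxa7 and Hoxc8 given above among them. Hox genes lower at 2-fold (1 of 4) numbered 2 of 4 with a pseudocount of 0.1, with equal summed FPKM or at 1.5-fold. They numbered 2 of 32 with no filter and 2 of 17 with a mean of at least 0.2 FPKM. With a pseudocount of 5, centred on the median gene, with a TMM factor or at 3-fold they numbered 0 of 4. The share over all genes was computed at the main settings only, for these genes and the lists below. No Hox gene has a mean of 5 FPKM. Their median was -0.93 with a pseudocount of 0.1, -0.23 with 5, -0.29 centred on the median gene, -0.35 with TMM and -0.97 with equal summed FPKM. With no filter the median of the 32 genes was -0.06.

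Lower cofactors numbered 2 of 6 with a pseudocount of 0.1, equal summed FPKM or 1.5-fold. They numbered 0 of 6 with a pseudocount of 5, centred, with TMM or at 3-fold, and 0 of 2 at a mean of 5 FPKM. Higher cofactors numbered 1 with a pseudocount of 0.1 or at 1.5-fold. Polycomb and Trithorax genes together gave 17 of 52 lower with a pseudocount of 5. They gave 1 of 52 higher with a pseudocount of 0.1, centred or with TMM, and 2 of 52 higher at 1.5-fold. Other homeobox genes gave 15 of 44 lower with a pseudocount of 5, 16 of 22 at a mean of 5 FPKM and 13 of 44 at 3-fold. They gave 1 higher under these 3 settings and with equal summed FPKM.

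Hox genes at or above a level numbered 19 at 300 µM and 20 at 100 µM for 0.1 FPKM, 7 at 300 µM for 0.5 FPKM, 0 at 300 µM and 2 at 100 µM for 2 FPKM, and 0 at 300 µM and 1 at 100 µM for 5 FPKM. With equal summed FPKM, 5 reached the level of 1 at 300 µM. Cluster sums with equal summed FPKM were 5.38 at 300 µM and 22.08 at 100 µM for HoxA, 5.74 at 300 µM and 15.91 at 100 µM for HoxB, and 4.80 at 300 µM and 3.83 at 100 µM for HoxC. Without ribosomal protein genes they were 8.38 at 300 µM and 29.69 at 100 µM for HoxA, 8.95 at 300 µM and 21.39 at 100 µM for HoxB, and 7.48 at 300 µM and 5.15 at 100 µM for HoxC. The cause of these shifts is the alternative's own scale or threshold. Depth limits every gene under about 10 reads.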
